A study of Mus musculus with 6 samples.

Results

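Cathepsins are the proteases of the lysosome, and 9 of them were followed here in the healing mouse infarct: Ctsa, Ctsb, Ctsc, Ctsd, Ctsh, Ctsk, Ctsl, Ctss and Ctsz. They were chosen by gene symbol, and all 9 are among the 12969 genes of the expression table. RNA-seq was made from infarct tissue of male mice about 12 weeks old, 4 days after permanent suture ligation of the left anterior coronary artery. One group of 3 libraries came from mice labelled IRF3-/- (Irf3KO) and the other group of 3 from wild-type C57BL/6 mice (WT). Every mouse of both groups had an infarct, and no unoperated heart is compared here. No source used here states the strain of the Irf3KO mice or which part of the gene they lack. The labels number the libraries and say nothing more of the animals, so p-values measure only how these samples spread.

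Cathepsins are made as inactive precursors, carried to the lysosome largely by mannose 6-phosphate receptors, and activated in its acidic lumen. Most belong to the papain-like cysteine proteases (Ctsb, Ctsc, Ctsh, Ctsk, Ctsl, Ctss and Ctsz); Ctsd is an aspartic protease and Ctsa a serine carboxypeptidase. Macrophages, which clear dead muscle from an infarct, are rich in lysosomes, and cathepsins released outside the cell can cut elastin and collagen. Irf3 is a transcription factor that starts type I interferon production after cells sense stray DNA or RNA, and the study compared infarcts with and without it.

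Values are RPKM, reads scaled to gene length and library depth. Levels of different genes can be set side by side only as far as the gene lengths used match the transcripts present, which was not tested. Those lengths ran from 1358 bases for Ctss to 5801 for Ctsc. The comparison of genotypes for 1 gene does not depend on them. The spacing of low values put the libraries at 14.8 to 61.8 M reads in genes, and each cathepsin value rests on at least 856 reads, where counting error is at most 3.42%. Irf3 itself read 7.4, 8.74 and 7.68 RPKM in the Irf3KO libraries and 13.76, 13.87 and 11.56 RPKM in WT, lower in every Irf3KO library but not absent. Irf3KO replicate 2 stands apart from the other libraries: its median-of-ratios factor, a measure of how high a typical gene reads, was 0.818 against 1.024 to 1.084 elsewhere. All 12 macrophage markers were found and none was at 0 in any library, but their summed level was 2221 RPKM in that library, against 4631 and 5769 in the other Irf3KO libraries and 3368 to 6171 in WT. Cathepsin fold changes, and other values that it moves by over 1.5 times, are therefore also given without that library. In bulk tissue, fewer cells of a type and less RNA per cell cannot be told apart.

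Promoter sequence was available from RefSeq for 7 of the 9 genes (250 bases before to 50 after an annotated start, build GRCm38.p6), and not for Ctsb and Ctsh. The windows of Ctsa, Ctsd and Ctss are shown because Ctss and Ctsd stood farthest apart between the genotypes when set against each other, and the profile of Ctsa was the closest to that of Ctsd. In Ctsa and Ctsd the capitals mark CACGTGA on either strand, the core of the element bound by Tfeb, the regulator of lysosomal genes; where both strands match, the run reads TCACGTGA. In Ctss the first capitals mark GAAANNGAAA, the core of the interferon-stimulated response element to which interferon regulatory factors bind, and the second mark GAGGAAGT on the reverse strand, a form of the site of the myeloid factor PU.1.
Ctsa (chr2:164833523-164833822, + strand): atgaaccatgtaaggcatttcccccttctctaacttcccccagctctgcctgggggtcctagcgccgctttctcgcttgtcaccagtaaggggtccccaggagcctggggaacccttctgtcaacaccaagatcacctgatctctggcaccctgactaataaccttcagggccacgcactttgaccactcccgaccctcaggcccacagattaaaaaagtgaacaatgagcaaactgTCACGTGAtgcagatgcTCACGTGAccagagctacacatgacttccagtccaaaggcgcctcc
Ctsd (chr7:142387778-142388077, - strand): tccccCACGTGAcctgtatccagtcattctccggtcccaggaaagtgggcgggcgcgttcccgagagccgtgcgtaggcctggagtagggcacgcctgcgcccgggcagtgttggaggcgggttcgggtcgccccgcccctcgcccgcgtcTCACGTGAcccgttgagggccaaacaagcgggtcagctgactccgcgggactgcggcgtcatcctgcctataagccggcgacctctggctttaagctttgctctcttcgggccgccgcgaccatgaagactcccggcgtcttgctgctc
Ctss (chr3:95526536-95526835, + strand): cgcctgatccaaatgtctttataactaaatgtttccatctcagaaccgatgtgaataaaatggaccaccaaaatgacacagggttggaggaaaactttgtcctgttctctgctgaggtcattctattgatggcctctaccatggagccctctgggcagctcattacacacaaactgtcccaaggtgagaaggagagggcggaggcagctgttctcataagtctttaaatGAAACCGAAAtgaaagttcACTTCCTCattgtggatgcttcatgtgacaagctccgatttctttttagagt
CACGTGA was found for 2 of the 7 genes, Ctsa and Ctsd, and in 3.77% of the 32851 promoter windows of the table. GAAANNGAAA was found for Ctss alone among the 7, at 21 to 12 bases before the annotated start, and in 3.44% of all windows. GAGGAAGT was found for Ctss and Ctsc, and in 3.2% of all windows. Ctsa has another annotated start whose window holds none of these motifs, and the windows of Ctsk, Ctsl and Ctsz hold none either. These are matches of letters and no binding was measured.

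Ctsd was the most abundant cathepsin and Ctsk the least, with a mean over the 6 libraries of 2044 and 46.7 RPKM. Ctsd ranked 11 among the 12913 genes whose mean reached 1 RPKM, Ctsb (935 RPKM) ranked 37, Ctss (619 RPKM) 62 and Ctsl (390 RPKM) 110. Ctsz followed at 241 RPKM, Ctsa at 99.5, Ctsh at 73 and Ctsc at 58.5 RPKM. Each gene stood above the next one in the order in 6 of 6 libraries, except Ctss above Ctsl and Ctsc above Ctsk, which held in 5 of 6. Both exceptions were Irf3KO replicate 2. Only the gaps from Ctsd to Ctsb and from Ctsz to Ctsa were so wide that the ranges over all libraries did not overlap.

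**Figure D1:**
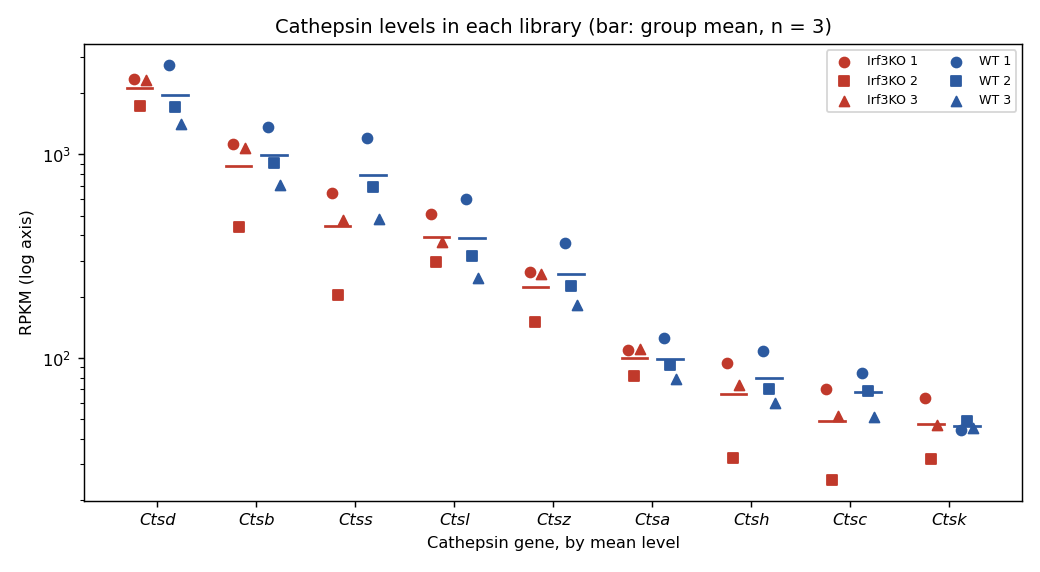
RPKM (log axis) of the 9 cathepsin genes in each library, ordered by mean level, with Irf3KO in red, WT in blue, the replicate number as the symbol and a bar at the mean of each group of 3. The red square, Irf3KO replicate 2, is the lowest of the 6 libraries for Ctsb, Ctsc, Ctsh, Ctsk, Ctss and Ctsz, and the groups overlap for all 9 genes.

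No cathepsin differed between the genotypes in the test across all genes. Of the 9, limma called 0 at an adjusted p under 0.05, where it called 0.503% of the 12913 genes tested, and 0 had an unadjusted p under 0.05, against 8.40% of all genes. For 0 of the 9 did the 3 Irf3KO libraries lie wholly above or below the 3 WT libraries, against 18.4% of all genes. Their median log2 fold change on log2(RPKM + 1) was -0.19, beside -0.09 for all genes tested, and 6 of 9 were below 0. Without Irf3KO replicate 2 the median was 0.18, beside 0.01 for all genes, 2 of 9 were below 0 and 0 were called, against 0.743% of all genes. Scaling by the median-of-ratios factors moved the median of all genes from -0.09 to 0.02 and that of the cathepsins to -0.07.

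Ctss, an elastin-cutting protease that stays active at neutral pH and trims the invariant chain in antigen-presenting cells, had the fold change farthest from 0. It stood at 645.98, 204.61 and 477.43 RPKM in Irf3KO replicates 1 to 3 and at 1207.95, 694.23 and 483.55 RPKM in WT replicates 1 to 3. Irf3KO replicates 2 and 3 were below all of WT, and replicate 1 lay between WT replicates 2 and 3. The means were 443 ± 223 against 795 ± 373 RPKM (SD, n = 3 per group), a ratio of 0.557. The log2 fold change was -0.89 ± 0.51 (SE; limma adjusted p = 0.556), with a 95% interval that runs from a ratio of 0.24 to one of 1.21. It was -0.41 ± 0.44 without Irf3KO replicate 2 and -0.54 ± 0.51 without WT replicate 1 (limma adjusted p = 0.868 and 0.676).

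Ctsk, the strongest collagenase of the family and best known from bone-resorbing osteoclasts, lies next to Ctss in the RefSeq gene order of mouse chromosome 3, yet the 2 genes read differently. Ctsk stood at 63.4, 31.93 and 46.7 RPKM in Irf3KO and at 44.29, 48.88 and 45.12 RPKM in WT. The WT libraries lay close together and the Irf3KO libraries on both sides of them, so the means were 47.3 ± 15.7 and 46.1 ± 2.45 RPKM (SD, n = 3 per group). The log2 fold change was -0.01 ± 0.26 (limma adjusted p = 0.98), turned to 0.24 ± 0.18 without Irf3KO replicate 2 and to 0.11 under median-of-ratios scaling, and its 95% interval covers ratios from 0.654 to 1.5. Of 6 osteoclast markers 2 were in the table: Acp5, tartrate-resistant acid phosphatase, stood at 41.28 ± 9.5 against 28.49 ± 14.9 RPKM (limma adjusted p = 0.556). The other, Atp6v0d2, a proton pump subunit, stood at 21.78, 3.99 and 13.29 RPKM in Irf3KO and at 9.36, 5.47 and 2.32 RPKM in WT. The groups overlapped, and its log2 fold change was 0.96 ± 0.58 (limma adjusted p = 0.556), and 1.57 ± 0.45 without Irf3KO replicate 2 (adjusted p = 0.371).

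Ctsl and Ctsb, the broad endopeptidases that break down proteins delivered to the lysosome, overlapped between the groups. Ctsl stood at 507.08, 294.2 and 372.63 RPKM in Irf3KO and at 603.95, 318.08 and 245.71 RPKM in WT, for which limma gave 0.08 ± 0.39 on the log2 scale (SE, n = 3 per group; limma adjusted p = 0.925). Both the highest and the lowest value belonged to WT. Without Irf3KO replicate 2 the log2 fold change of Ctsl was 0.27 ± 0.42 (limma adjusted p = 0.912). Ctsb stood at 1125.53, 441.28 and 1069.28 RPKM in Irf3KO and at 1357.97, 906.96 and 707.28 RPKM in WT. Irf3KO replicates 1 and 3 lay inside the WT range and replicate 2 below it, and the log2 fold change went from -0.24 ± 0.47 (adjusted p = 0.807) to 0.20 ± 0.39 without that library.

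The exopeptidases Ctsc, Ctsh and Ctsz had values below 0, which shrank or turned without Irf3KO replicate 2. Ctsc, dipeptidyl peptidase I, removes dipeptides that keep granule serine proteases of neutrophils, mast cells and cytotoxic lymphocytes inactive. It stood at 70.09, 25.1 and 51.89 RPKM in Irf3KO and at 83.83, 68.41 and 51.4 RPKM in WT, which is -0.55 ± 0.37 on the log2 scale (SE, n = 3 per group; limma adjusted p = 0.561). Leaving out replicate 2 gave -0.14 ± 0.25. Ctsh, an aminopeptidase, stood at 93.99, 32.09 and 73.27 RPKM against 108.2, 70.32 and 60.23 RPKM. Its lowest value was again Irf3KO replicate 2, and the log2 fold change was -0.34 ± 0.41 with that library and 0.10 ± 0.28 without it (limma adjusted p = 0.687 and 0.943). Ctsz, a carboxypeptidase, stood at 263.2, 149.28 and 258.82 RPKM against 366.09, 226.67 and 181.89 RPKM. Its log2 fold change was -0.19 ± 0.35 (limma adjusted p = 0.798) and 0.08 ± 0.33 without replicate 2.

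Ctsd and Ctsa, the members that are not cysteine proteases, stood nearest to the WT mean in Irf3KO replicate 2. Ctsd, the main aspartic protease of the lysosome, stood at 2344.41, 1725.87 and 2306.7 RPKM in Irf3KO and at 2754.21, 1716.49 and 1414.75 RPKM in WT. All Irf3KO values lay inside the WT range, and the log2 fold change was 0.16 ± 0.43 (SE, n = 3 per group; limma adjusted p = 0.864). Ctsa, which also shields the sialidase Neu1 and the beta-galactosidase Glb1 in a complex, stood at 109.27, 81.1 and 110.26 RPKM against 125.42, 92.25 and 78.5 RPKM. It lay inside the WT range as well, at 0.03 ± 0.25 on the log2 scale (limma adjusted p = 0.948). Without Irf3KO replicate 2 the log2 fold changes were 0.30 ± 0.47 for Ctsd and 0.18 ± 0.23 for Ctsa (limma adjusted p = 0.911 and 0.893). With all libraries, the 95% intervals of both still cover ratios from 0.56 to 2.23 for Ctsd and from 0.686 to 1.53 for Ctsa.

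**Figure D2:**
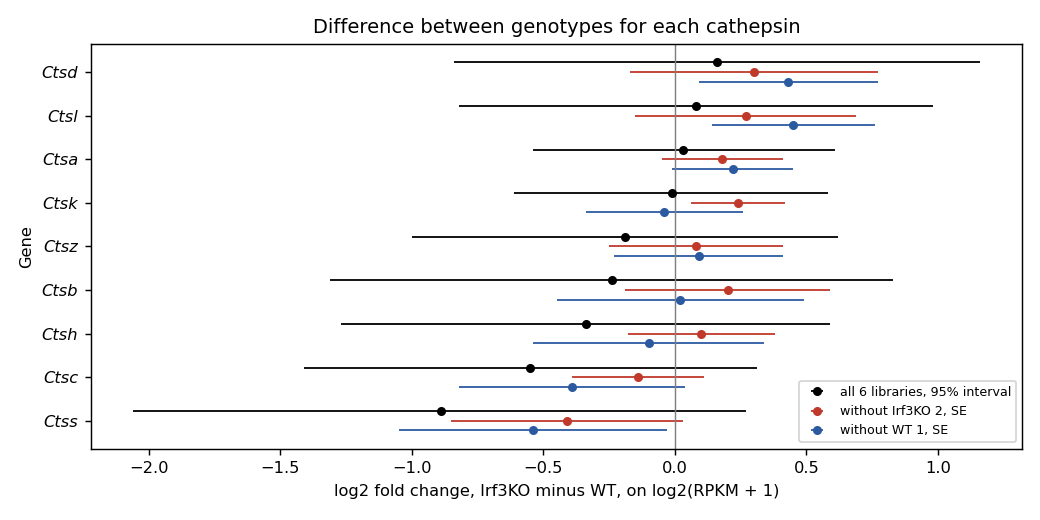
Fold change of each cathepsin between Irf3KO and WT on the log2(RPKM + 1) scale, from all 6 libraries with its 95% interval (black), and without Irf3KO replicate 2 (red) or WT replicate 1 (blue) with the SE. Every 95% interval includes 0, and Ctss lies lowest at -0.89.

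Libraries of 1 genotype differed widely, and 8 of the 9 cathepsins were highest in WT replicate 1 among the WT libraries. Relative to the WT mean on the log2 scale, these 8 stood between 0.33 for Ctsc and 0.74 for Ctsl in WT replicate 1, and Ctsk at -0.06. In Irf3KO replicate 2 all 9 were below 0, from -0.13 for Ctsd, -0.25 for Ctsa and -0.30 for Ctsl to -1.24 for Ctsh, -1.37 for Ctsc and -1.85 for Ctss. The 12 macrophage markers had a median of -0.89 in that library and of 0.53 in WT replicate 1, and of -0.27 to 0.20 in the other 4. Their part in the cathepsin values was not tested.

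**Figure D3:**
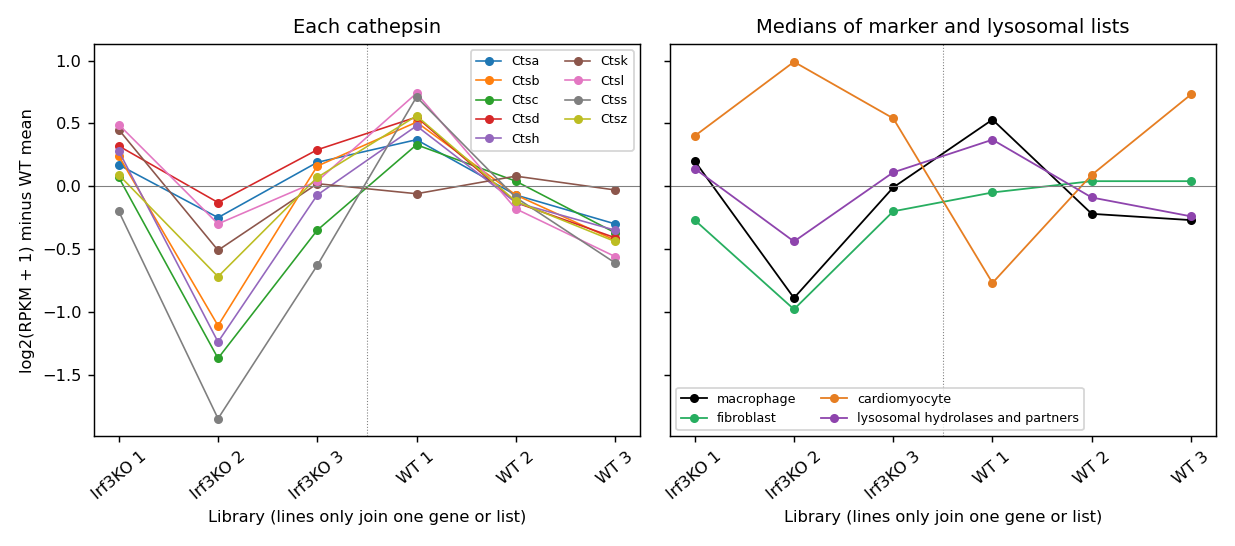
log2(RPKM + 1) minus the WT mean in each library, for each cathepsin (left) and as the median of the macrophage, fibroblast and cardiomyocyte markers and of other lysosomal hydrolases (right). Ctss reaches -1.85 in Irf3KO replicate 2, where the macrophage median is -0.89 and the cardiomyocyte median 0.99.

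Set against the mean log2 level of the macrophage markers in the same library, 7 of the 9 cathepsins varied less over the 6 libraries than before. The SD fell from 0.60 to 0.12 for Ctsh, from 0.58 to 0.13 for Ctsb and from 0.45 to 0.13 for Ctsz. For Ctsd it hardly moved, from 0.36 to 0.35. For Ctsa and Ctsk it went from 0.27 to 0.31 and from 0.31 to 0.38. How many of all genes varied less on this scale was not counted. On this relative scale Ctss stood at 2.31, 1.81 and 2.11 above the markers in Irf3KO and at 2.85, 2.73 and 2.42 in WT. Ctsd stood at 4.17, 4.89 and 4.38 in Irf3KO and at 4.03, 4.04 and 3.96 in WT. These were the 2 of 9 genes whose groups no longer overlapped, Ctss lower and Ctsd higher in Irf3KO, against 4.96% of all genes on the same scale. Among all genes the share was 18.4% for RPKM itself, so it fell on this scale, while most cathepsins varied less on it. The 4.96% is therefore not a like background for the cathepsins. Neither Ctss nor Ctsd was called when all genes were fitted on this scale, where 0.170% of genes were. The log2 fold changes were -0.59 ± 0.54 and 0.47 ± 0.62 (SE, limma adjusted p = 0.986 for both). In that fit limma draws the SE of each gene toward that of other genes. It was 0.56 for Ctsb, whose SD over the 6 libraries was 0.13. The lack of a call therefore says little about Ctss and Ctsd. Irf3KO replicate 2 lay farthest from WT for both, and no fold change on this scale is given without it. The median log2 fold change on this scale was 0.22 over all genes and 0.12 over the 9 cathepsins, so a typical gene also read higher in Irf3KO. This scale was chosen after the data were seen.

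The make-up of the cathepsin transcripts differed in the same direction. Ctss held 12.4%, 6.85% and 10% of the summed RPKM of the 9 genes in Irf3KO and 18.2%, 16.8% and 14.8% in WT. Each Irf3KO library was below each WT library, with means of 9.75% ± 2.77 and 16.6% ± 1.69 (SD, n = 3 per group), and 11.2% in Irf3KO without replicate 2. Ctsd held 44.9%, 57.8% and 48.4% in Irf3KO and 41.4%, 41.4% and 43.3% in WT, higher in every Irf3KO library. Its means were 50.4% ± 6.68 in Irf3KO and 42% ± 1.08 in WT (SD, n = 3 per group), and 46.6% in Irf3KO without replicate 2. Ctsz, at 5 to 5.43% against 5.47 to 5.57%, was the only other gene whose groups did not overlap. Such a separation relative to the summed cathepsins was found for 6.64% of all genes, against 18.4% for RPKM itself. The cathepsins make up the sum, so the 6.64% is not a like background for them. The shares of 9 genes that add up to a whole are not independent. The sum itself overlapped, at 2985 to 5223 RPKM in Irf3KO and 3268 to 6652 RPKM in WT.

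**Figure D4:**
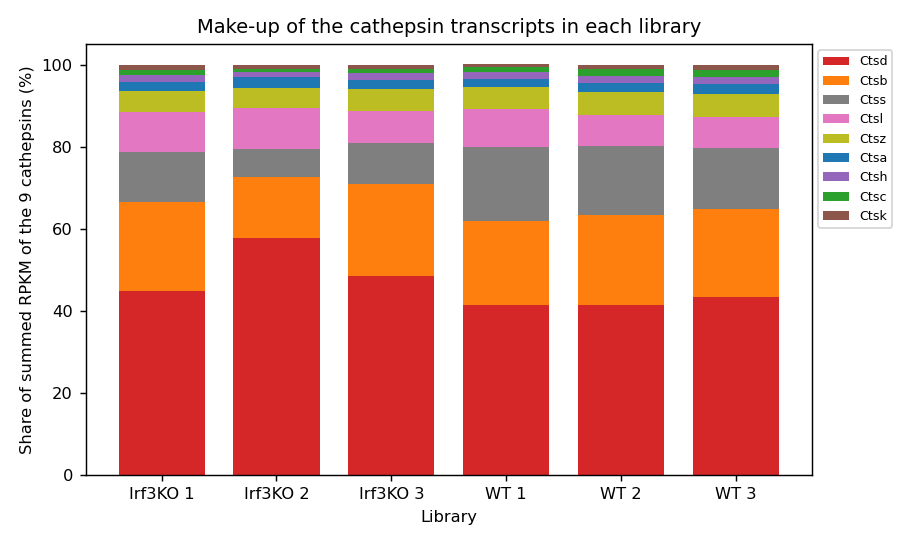
Share of the summed RPKM of the 9 cathepsins held by each gene (stacked bars, in %) in each library. Ctss (grey) takes 6.85 to 12.4% in the Irf3KO libraries and 14.8 to 18.2% in WT, and Ctsd (red) 44.9 to 57.8% and 41.4 to 43.3%.

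Ratios between pairs of cathepsins within a library were compared between the genotypes, which removes what both genes of a pair share. Of the 36 pairs, 13 (36.1%) had Irf3KO and WT libraries that did not overlap, beside 20.9% of all pairs of tested genes. Ctss took part in 8 of these, which is each of its 8 pairs, and was the lower partner in Irf3KO each time. Of 12905 genes set against the same 8 cathepsins, 0.876% were lower in this way against all of them. That share counts only the direction Ctss was seen to take, and leaves out genes that were higher against all 8. Among the cathepsin pairs without Ctss, the share whose groups did not overlap was below the 20.9% of all pairs of tested genes. The Ctsl to Ctss ratio was 0.785, 1.44 and 0.78 in Irf3KO and 0.5, 0.458 and 0.508 in WT, and only in Irf3KO replicate 2 did Ctsl exceed Ctss. Ctsd was 3.63, 8.43 and 4.83 times Ctss in Irf3KO and 2.28, 2.47 and 2.93 times in WT, and Ctsb was 1.74, 2.16 and 2.24 against 1.12, 1.31 and 1.46 times Ctss.

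The separation was narrow for other partners of Ctss. The Ctsc to Ctss ratio was 0.109 to 0.123 in Irf3KO and 0.0694 to 0.106 in WT, and the Ctsk to Ctss ratio 0.0978 to 0.156 against 0.0367 to 0.0933. The difference in log2 ratio to Ctss ranged from 0.34 for Ctsc to 1.05 for Ctsd. It went from 0.93 to 0.59 for Ctsa without Irf3KO replicate 2, and from 0.88 to 0.50 for Ctsk and from 0.34 to 0.15 for Ctsc without WT replicate 1. Among pairs without Ctss, Ctsd was higher in Irf3KO relative to Ctsb, Ctsc and Ctsz (0.40, 0.71 and 0.35 on the log2 scale). Without Irf3KO replicate 2 these differences were 0.10, 0.44 and 0.23. Ctsc was also lower relative to Ctsa and Ctsk (0.59 and 0.54), by 0.32 relative to Ctsa without Irf3KO replicate 2 and by 0.35 relative to Ctsk without WT replicate 1. The pairs share genes and libraries, and Ctss was singled out after the ratios were seen, so these values describe the 6 libraries and carry no test.

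**Figure D5:**
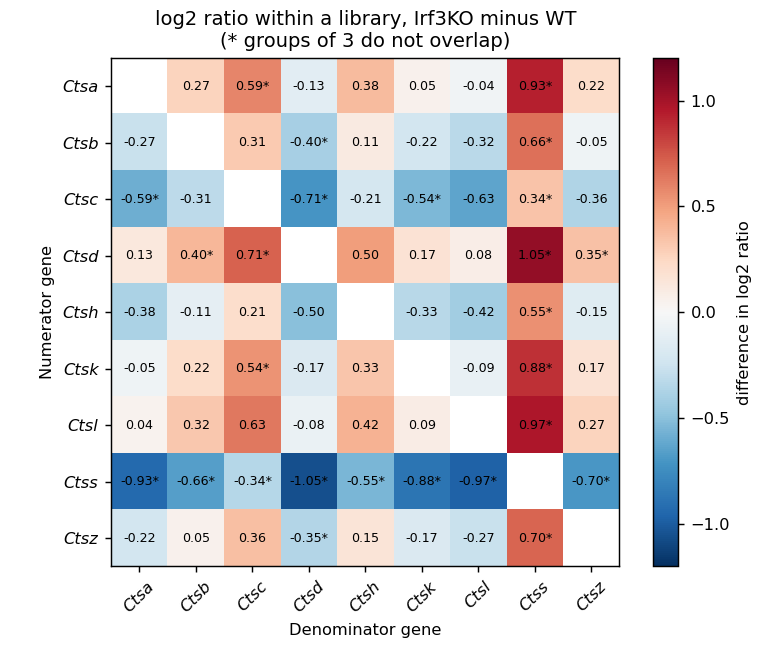
Difference between Irf3KO and WT in the log2 ratio of the row gene to the column gene within a library, over the 9 cathepsins. Stars mark pairs whose 3 Irf3KO and 3 WT libraries do not overlap, and the Ctss row is below 0 with a star in all 8 cells.

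Profiles over the 6 libraries were compared by the root mean square difference of log2(RPKM + 1) after removing each gene's mean, a measure that is 0 for genes that move in parallel. The closest pairs of cathepsins were Ctsa with Ctsd and Ctsb with Ctsh (0.11 each), followed by Ctsc with Ctsh (0.15). Ctss was farthest from Ctsd and Ctsk (0.64 each) and nearest to Ctsc (0.27). Over all genes, the nearest to the mean profile of the 9 were Stxbp2 (0.027), a partner of the secretion machinery, Arpc5 (0.037), an actin-branching subunit, Fnip2 (0.065), Npc2 (0.068), the cholesterol carrier of the lysosome, and Tpm3 (0.069). Among the nearest to single members were Lgmn, the lysosomal protease that can process cathepsin precursors, for Ctsz (0.045), and Cd93 for Ctsb (0.055). Cstb, the cystatin that inhibits cathepsins in the cytosol, was near Ctsl (0.102), behind Ngfrap1 (0.096). The nearest were Ttyh2 for Ctsa (0.023), Gcnt1 for Ctsc (0.020), Tkt for Ctsd (0.027), Skap2 for Ctsh (0.051) and Phf7 for Ctsk (0.052). None of the 3 genes nearest to any member was another cathepsin. Among the genes nearest to Ctss were Pla2g7 (0.099) and Retnlg (0.135). With only 6 libraries many genes lie this close, and nothing about shared function follows.

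Other cathepsins were sparse. Of 14 listed, Ctsf, Ctso and Ctsw were in the table and the rest are not analysed here. Ctsf, a further cysteine cathepsin, was highest in Irf3KO replicate 2, at 15.98, 24.8 and 17.44 RPKM in Irf3KO against 9.52, 14.69 and 20.36 RPKM in WT (log2 fold change 0.40 ± 0.29, SE, n = 3 per group; limma adjusted p = 0.569). Leaving out that library gave 0.22 ± 0.28. Ctso stood at 11.41, 4.46 and 9.08 RPKM against 11.98, 9.45 and 10.42 RPKM (limma adjusted p = 0.576), a log2 fold change of -0.39 ± 0.30 that was -0.05 ± 0.16 without Irf3KO replicate 2. Ctsw, the cathepsin of cytotoxic lymphocytes, stood at 0.99, 0.49 and 0.71 RPKM against 1.85, 1.56 and 1.39 RPKM. All of its Irf3KO values were below WT, and the difference of -0.59 ± 0.17 on the log2(RPKM + 1) scale did not pass over all genes (limma adjusted p = 0.404). The means were 0.73 and 1.6 RPKM, so low that the added 1 makes this difference smaller than that of the RPKM themselves.

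Of the cathepsin inhibitors, 5 of 18 listed were tested and 0 were called in either direction (0 with an unadjusted limma p under 0.05), and the median of the list was -0.01 on the log2 scale (0.06 without Irf3KO replicate 2). Cystatin C (Cst3), the secreted inhibitor, stood at 611.66, 869.62 and 725.29 RPKM in Irf3KO and at 685.44, 688.56 and 770.25 RPKM in WT, highest in Irf3KO replicate 2. Its log2 fold change from all 6 libraries was 0.03 ± 0.30 (SE, limma adjusted p = 0.964), and none is given without that library. Ctla2a, Cstb and Ctla2b had log2 fold changes of -0.30 ± 0.30, 0.23 ± 0.34 and -0.08 ± 0.22 (SE, n = 3 per group; limma adjusted p = 0.639, 0.754 and 0.863). They stood at -0.18, 0.38 and 0.06 once Irf3KO replicate 2 was left out. Of 9 granule serine proteases that Ctsc activates, the mast cell genes Mcpt4 and Tpsb2 were tested and not called, with means of 1.517 and 1.797 RPKM in Irf3KO and 1.297 and 2.16 RPKM in WT (limma adjusted p = 0.733 and 0.879; 0 with an unadjusted p under 0.05). Gzma, a granzyme of cytotoxic lymphocytes, had a mean under 1 RPKM over the 6 libraries and stayed out of the test. It stood at 0.65, 0.41 and 0.6 RPKM in Irf3KO and at 1.13, 1.49 and 1.42 RPKM in WT, lower in every Irf3KO library; it is named after its values were seen.

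Lysosomal hydrolases and partners of the cathepsins included Glb1, which of all related genes came nearest to a call. Of 38 tested, 0 were called and 2 had an unadjusted limma p under 0.05, with a median log2 fold change of -0.03, against -0.09 for all genes (0.12 against 0.01 without Irf3KO replicate 2). Glb1, the beta-galactosidase held in the complex with Ctsa, stood at 8.87, 6.88 and 9.41 RPKM in Irf3KO and at 20.73, 16.13 and 16.2 RPKM in WT. The groups did not overlap, and the difference of -0.99 ± 0.20 on the log2 scale (SE, n = 3 per group) did not pass over all genes (limma adjusted p = 0.113, and 0.0814 without Irf3KO replicate 2). Neu1, the sialidase of the same complex, stood at 14, 11.26 and 14.22 RPKM against 15.91, 11.61 and 11.37 RPKM and overlapped, as Ctsa did. Idua, which degrades glycosaminoglycans, stood at 4.37, 3.45 and 4.24 RPKM against 7.62, 7.82 and 7.01 RPKM (limma adjusted p = 0.203). Lgmn stood at 375.04, 216.38 and 351.53 RPKM against 484.95, 313.69 and 244.83 RPKM (limma adjusted p = 0.866).

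Genes that carry enzymes to the lysosome and build it were not called either. Of 12 sorting genes 0 were called (0 with an unadjusted limma p under 0.05; median -0.05), with Gnptab, which makes the mannose 6-phosphate tag, at -0.49 ± 0.32, and the receptors Igf2r and Scarb2 at -0.36 ± 0.24 and -0.39 ± 0.27 (SE, n = 3 per group; limma adjusted p = 0.556, 0.56 and 0.562). With Irf3KO replicate 2 left out, these 3 genes were at -0.10, -0.12 and -0.13 and the median of the sorting genes at 0.07. Of 26 membrane and proton pump genes 0 were called (1 with an unadjusted p under 0.05; median -0.01), with the pump subunits Atp6v0a1, Atp6v1g1 and Atp6v0e at 0.49 ± 0.21, 0.44 ± 0.20 and 0.57 ± 0.31 (limma adjusted p = 0.556 each). They were at 0.32, 0.35 and 0.31 without Irf3KO replicate 2, where the median was 0.17. The regulators Tfeb, Tfec and Mitf were at 0.40 ± 0.30, -0.34 ± 0.34 and -0.26 ± 0.30 (adjusted p = 0.572, 0.641 and 0.675), and 0 of 4 genes of that list were called (0 with an unadjusted p under 0.05; median -0.06). Without Irf3KO replicate 2 these 3 regulators were at 0.06, 0.04 and 0.07, and the median was 0.07.

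Cell type markers bear on where the transcripts could come from, and their part in the cathepsin values was not tested. Medians of the log2 fold change were -0.27 for 12 macrophage markers, -0.89 for 4 of inflammatory monocytes, -0.34 for 4 of neutrophils and -0.17 for 4 of dendritic cells. They were -0.48 for 8 fibroblast markers, 0.56 for 8 cardiomyocyte markers, -0.13 for 6 endothelial and -0.50 for 5 smooth muscle markers, and 0.78 for the 2 osteoclast markers. Without Irf3KO replicate 2 the medians turned to 0.11 for macrophage, 0.0023 for dendritic cell and 0.10 for endothelial markers. They were then -0.15 for neutrophil, -0.29 for fibroblast and -0.26 for smooth muscle markers, with -0.67 for inflammatory monocytes, 0.46 for cardiomyocytes and 1.15 for osteoclasts. Of all these markers, limma called 0 (6 had an unadjusted p under 0.05), and lymphocyte markers are not analysed here. Summed fibroblast markers stood at 3261 to 4459 RPKM in Irf3KO and 5277 to 5677 in WT, and cardiomyocyte markers at 13832 to 21842 against 6621 to 18146 RPKM. None of the macrophage, fibroblast, cardiomyocyte or neutrophil markers held by the table was at 0 in a library.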

How the data were processed

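Infarct RNA of 3 Irf3KO and 3 WT mice was analysed from the RPKM that the authors deposited, with 2 decimals and gene lengths. The submitters' processing notes list STAR 2.3.0, HTSeq 0.6.0, edgeR 3.8.6, Picard 1.100 and SAMtools 0.1.18.0, with build NCBIM37 (mm9). How they were set, whether strand was used and which genes were filtered out is not given in the sources here, so reads of a gene and an antisense partner cannot be told apart. Names split across cells were repaired in 5 lines. Columns were matched to samples by title. Depth came from the steps between low values: 100% of those used lay within 0.2 reads of a whole number.

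The 12913 genes whose mean reached 1 RPKM were fitted in R 4.3.3 by limma 3.58.1, on log2(RPKM + 1) (mean-variance trend, two-sided, Benjamini-Hochberg over all genes, threshold 0.05). With 3 against 3 an exact permutation test cannot go below p = 0.1. The fit and the depth estimate were tested on simulated data. Alternatives were another pseudocount (0.1), no filter or at least 5 RPKM, median-of-ratios scaling, a replicate block, each library left out, and, added after seeing the data, values relative to the 12 macrophage markers. The members, lists and tests were chosen with earlier results of these data known. All 9 cathepsins were named, with the 3 genes of smallest p in each related list, the 5 nearest the mean profile and up to 3 nearest each member; 1 gene that the rule names is not reported here. Cst3, Gzma, Atp6v0d2 and the values of Neu1 and Lgmn were added after their values were seen.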

Additional observations from a re-analysis of the deposited data

How the results depend on the processing

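The number of cathepsins called was 0 under each of the 12 alternatives, as was the number of other lysosomal genes called, and Ctss and Ctsc stayed below 0 under all of them. Leaving out 1 library gave log2 fold changes from -1.24 to -0.41 for Ctss, -0.86 to -0.14 for Ctsc, -0.47 to 0.20 for Ctsb, -0.66 to 0.10 for Ctsh, -0.41 to 0.09 for Ctsz, -0.25 to 0.24 for Ctsk, -0.12 to 0.22 for Ctsa, -0.05 to 0.43 for Ctsd and -0.20 to 0.45 for Ctsl. Median-of-ratios scaling turned Ctsk to 0.11, and values relative to the macrophage markers turned Ctsb to 0.07, Ctsk to 0.29 and Ctsz to 0.12; the cause was not tested. Over all genes 65 were called, 34 with at least 5 RPKM (fewer genes tested), 22 relative to the macrophage markers, and 21 (without WT replicate 3) to 96 (without Irf3KO replicate 2) with 1 library left out. Without Irf3KO replicate 3, WT replicate 1 or WT replicate 2 the count was 26, 31 and 30. With the replicate number as a block it was 250, and 0 cathepsins were called. The correlation of deviations from the group means was 0.13, -0.10 and -0.10 for libraries of the same number, so the numbers were not taken to pair the mice. Depth does not limit the cathepsin values, while 3 libraries per group limit the intervals.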
